A study of Macaca mulatta with 8 samples.

Results

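The nuclear genome encodes most protein subunits of the mitochondrial respiratory chain, and their transcripts were followed in primary rhesus macaque microglia exposed to a TLR4 agonist with or without an antagonist of the P2Y6 receptor. Members were chosen by gene symbol. They were all genes whose symbol begins with NDUFA, NDUFB, NDUFC, NDUFS or NDUFV and a digit, with UQCR, with COX4 to COX8 or with ATP5, together with SDHA, SDHB, SDHC, SDHD and CYC1. This gave 70 of the 35432 genes in the count files, with 29 in complex I, 4 in complex II, 6 in complex III, 16 in complex IV and 15 in complex V. COX7A2L and NDUFA4L2, relatives of complex IV subunits, and ATP5IF1, an inhibitor of complex V, were left out where the subunits of a complex are summarised.

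Microglia came from subcortical white matter of 4 animals. The study's donor table gives R07110 (13 years old) and R12016 (9 years) as males and R02046 (19 years) and R14143 (6 years) as females. Cells were kept for 8 days in medium with serum and M-CSF. On day 7 they received 10 µg/mL uLPS, an ultrapure lipopolysaccharide that engages TLR4, either alone (group uLPS, n = 4) or 1 h after 5 µM MRS2578, the P2Y6 receptor antagonist (group uLPS+MRS2578, n = 4), and RNA was taken 16 h later. Each animal gave 1 library to each group, both groups carry uLPS, and cells without uLPS were not analysed here.

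The respiratory chain sits in the inner mitochondrial membrane. Complex I oxidises NADH and complex II oxidises succinate, both pass electrons through ubiquinone to complex III, cytochrome c carries them on to complex IV, and complex IV reduces oxygen. Complexes I, III and IV pump protons, and complex V, the ATP synthase, uses the gradient to make ATP. Each complex except complex II also holds subunits encoded by mitochondrial DNA. Macrophages activated through TLR4 are known to lean towards glycolysis.

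Libraries held 9231109 to 32790348 counts. For R02046 the deposited labels and the supplementary expression table of the study give the libraries opposite conditions, and exchanging them turns the sign of every R02046 difference. Results are given with the deposited labels first, then with both R02046 libraries exchanged. Of 13 microglia and macrophage markers 11 passed the filter on low counts, and their summed level was 4885 to 6318 CPM (counts scaled to library size) with uLPS and 4388 to 5492 CPM with uLPS+MRS2578. CSF1R was at 1007 to 1471 CPM, whereas TMEM119 was at most 0.316 CPM and CX3CR1 at most 2.21 CPM. Summed oligodendrocyte markers were at 224 to 407 CPM, mostly CNP and MBP, endothelial and mural markers at 157 to 295 CPM, mostly PECAM1 and VWF, and lymphocyte markers at most at 0.518 CPM. In bulk RNA, fewer cells of a type and less RNA per cell cannot be told apart.

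Not every nuclear-encoded subunit is among the members. UQCRFS1, UQCR10, UQCR11, NDUFA13, NDUFS5 and ATP5PO, for example, would meet the rule, but no row of the count files carries these symbols. NDUFAB1, at 43.3 to 57.7 CPM, lies outside the rule because no digit follows NDUFA in its symbol. Levels, sums and rankings of complexes and subunits therefore cover the members only. Of the 70 members, 67 passed the filter on low counts. Their median level in the uLPS libraries was 100.2 TPM (counts divided by exonic length and scaled to the same sum in every library), over the 66 with a usable length, against 18.5 TPM over 10816 tested genes with a length. Of these 66 members, 62 lay above the median gene and 26 in the top 10% of genes. By complex, the median subunit stood at 202 TPM ± 47.3 (SD over animals, n = 4) for complex III, 145 ± 46.2 for complex IV, 125 ± 46.7 for complex V, 91.8 ± 17.5 for complex II and 88.1 ± 21.8 for complex I. No neighbouring pair in this order kept its order in all 4 uLPS libraries. With uLPS+MRS2578 the values were 203 ± 22.5, 148 ± 60.2, 124 ± 29.7, 92.8 ± 11.9 and 91.7 ± 13.5 TPM. As labelled, the mean level of every complex thus moved by less than its SD over animals, which does not use the pairing. These group levels are given for the deposited labels only. For complex III in R02046 the median subunit was at 273 TPM in the library labelled uLPS and 211 TPM in that labelled uLPS+MRS2578.

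**Figure D1:**
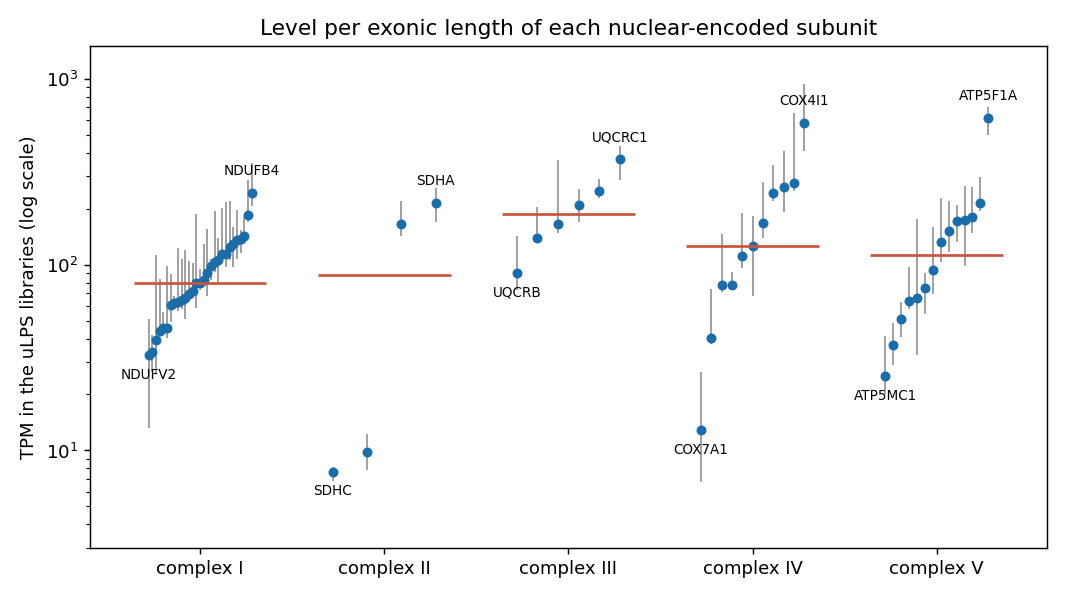
Level of each tested subunit in the 4 uLPS libraries (labels as deposited), in TPM on a log scale, by complex. Points are medians over the libraries, grey lines run from the lowest to the highest library and red lines are the medians of the points; the subunits of complexes I and III span 7.51-fold and 4.09-fold, those of complexes II, IV and V 28.0-fold, 44.8-fold and 24.4-fold.

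The 29 complex I subunits among the members lay within a 7.51-fold range. NDUFB4 and NDUFB8, accessory subunits of the membrane arm, were highest at 244 and 184 TPM, and NDUFV2, a core iron-sulfur subunit of the NADH-oxidising module, was lowest at 32.5 TPM. NDUFB8 was at 52.8, 52.4, 82.7 and 55.1 CPM with uLPS and at 62.1, 68.7, 68.4 and 38.8 CPM with uLPS+MRS2578 (in this and later sentences in the order R07110, R12016, R02046 and R14143). It was higher with MRS2578 in R07110 and R12016 and lower in R02046 as labelled and R14143, and the groups overlapped.

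Complex II has 4 subunits, whose levels fell into pairs. The catalytic flavoprotein SDHA and the iron-sulfur protein SDHB stood at 215 and 166 TPM, while the membrane anchors SDHC and SDHD stood at 7.67 and 9.81 TPM. SDHA was at 219, 182, 260.4 and 219 CPM with uLPS and at 218, 191, 292 and 209.6 CPM with uLPS+MRS2578. SDHC was at 5.94, 5.49, 5.76 and 6.00 CPM with uLPS and at 7.32, 6.01, 7.31 and 5.82 CPM with uLPS+MRS2578. SDHA thus differed little within each animal, by -0.00, 0.07, 0.17 and -0.06 on the log2 scale. Whether reads shared with near-identical copies were lost from the SDHC and SDHD rows was not tested.

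In complex III the core proteins UQCRC1 and UQCRC2 led at 368 and 250.2 TPM, and UQCRB, a small subunit, was lowest at 90.1 TPM. UQCRC1 was at 235, 203, 291 and 263 CPM with uLPS and at 228, 188, 253 and 254 CPM with uLPS+MRS2578, lower with MRS2578 in each animal as labelled. UQCRB was at 21.4, 28.2, 38.0 and 20.5 CPM with uLPS and at 31.3, 34.4, 24.4 and 13.3 CPM with uLPS+MRS2578, higher in R07110 and R12016 and lower in the other animals as labelled. CYC1, the cytochrome c1 heme protein, was at 149.8, 132, 186 and 157 CPM with uLPS and at 144, 137, 148 and 134 CPM with uLPS+MRS2578.

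Complex IV carries the subunits with tissue isoforms. Of the tissue-restricted forms, COX4I2 and COX6A2 were not detected, COX6B2 and COX8C were near 0, and COX7A1 was present in every library. COX4I1, the isoform of subunit 4 found in most tissues, was the highest of the complex at 576 TPM, followed by COX8A at 275 TPM. COX4I1 was at 212, 153, 327 and 196 CPM with uLPS and at 242, 225, 254 and 143 CPM with uLPS+MRS2578. COX4I2, an isoform best known from lung, and the heart and muscle isoform COX6A2 had 0 counts in all 8 libraries, where 3 counts correspond to 0.0915 to 0.325 CPM. The testis isoform COX6B2 had 1 count in each of 2 libraries and 0 in the others. Its broadly expressed counterpart COX6B1 was at 17.2 to 42.5 CPM.

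The heart and muscle isoform COX7A1 was detected and was the lowest of the complex per length, at 12.9 TPM. It was at 3.75, 7.79, 11.4 and 3.05 CPM with uLPS and at 5.42, 9.11, 4.02 and 2.91 CPM with uLPS+MRS2578. Its broadly expressed counterpart COX7A2 was at 10.4, 10.98, 20.4 and 12.1 CPM with uLPS and at 11.2, 10.6, 12.4 and 8.50 CPM with uLPS+MRS2578. Both had their highest value in the R02046 library labelled uLPS. COX6A1, the broadly expressed partner of COX6A2, carries no symbol in the count files and was found by its identifier. It was at 67.4, 73.5, 129.98 and 65.8 CPM with uLPS and at 81.2, 85.3, 88.6 and 45.4 CPM with uLPS+MRS2578. The testis isoform COX8C, found in the same way, had 4 counts in 1 library and 0 in the others.

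NDUFA4, first named as a complex I protein and now placed in complex IV, was counted here by its symbol under complex IV. It was at 19.8, 39.9, 31.1 and 14.3 CPM with uLPS and at 28.0, 52.6, 20.7 and 14.4 CPM with uLPS+MRS2578. NDUFA4L2, its relative and a target of hypoxia-inducible factors in other cells, was at 0.274, 0.383, 1.601 and 2.85 CPM with uLPS and at 0.526, 0.696, 1.54 and 0.895 CPM with uLPS+MRS2578. NDUFA4L2 was higher in both libraries of R02046 and R14143 than in any library of the other animals. COX7A2L, which takes part in joining complexes III and IV, was at 7.31, 5.11, 11.1 and 5.89 CPM with uLPS and at 7.48, 6.51, 7.75 and 4.70 CPM with uLPS+MRS2578. The match of COX7A2L to the annotation was uncertain, so it has no level per length.

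Complex V was led by ATP5F1A, the alpha subunit of the catalytic head, and ATP5F1C, the gamma subunit of the central stalk, at 613 and 214 TPM. ATP5MC1, a gene for the membrane ring subunit c, was the lowest gene at 25.1 TPM. ATP5MC2 and ATP5MC3, other genes for subunit c, stood at 51.2 and 74.4 TPM and were added after their values were seen. ATP5F1A was at 474, 409.8, 542 and 483 CPM with uLPS and at 466, 403, 554 and 529 CPM with uLPS+MRS2578. ATP5F1B, the beta subunit that pairs with alpha in the head, was at 22.4 to 35.9 CPM and 37.0 TPM. It was singled out after its values were seen. Whether reads shared with near-identical copies were lost from the ATP5F1B row was not tested. The inhibitor ATP5IF1, which blocks the head from running in reverse, was at 39.0, 42.8, 68.5 and 33.2 CPM with uLPS and at 48.6, 54.6, 42.2 and 23.5 CPM with uLPS+MRS2578.

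No member passed the test for MRS2578 (edgeR's quasi-likelihood F-test, blocked on donor, Benjamini-Hochberg adjusted p under 0.05 over 12131 genes). With the deposited labels 0 of 67 members were called, beside 0% of all genes, and 0 had an unadjusted p under 0.05, beside 5.14% of all genes. DESeq2's Wald test and edgeR's likelihood ratio test also called 0 members. For this comparison the study, which used edgeR too, reported genes with significant differences, heat shock protein genes among them. The 0% of all genes called here with the deposited labels differs from that result. The log2 fold changes of the members lay between -0.33 and 0.18, with 12 above 0 and a median of -0.09, against a median of -0.01 and 47.9% above 0 over all genes. With the R02046 libraries exchanged, 0 of 67 members were called beside 0.618% of all genes, and 4 had an unadjusted p under 0.05 beside 16.4%. There 55 members lay above 0 with a median of 0.11, against 50.2% of all genes. Without R02046, 39 lay above 0 with a median of 0.02, and 0 were called.

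By complex, the median log2 fold changes were -0.09 for complex I, 0.02 for complex II, -0.10 for complex III, -0.10 for complex IV and -0.11 for complex V with the deposited labels. With the exchange they were 0.12, -0.00, 0.10, 0.13 and 0.13. The direction of complexes I, III, IV and V therefore turned on how the R02046 libraries were assigned.

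The 6 members with the smallest unadjusted p under the deposited labels were NDUFA10, ATP5MG, COX7A2, NDUFB7, NDUFB2 and COX5A, all below 0 there. NDUFA10, an accessory subunit of complex I, was at 70.3, 66.3, 81.2 and 67.4 CPM with uLPS and at 58.8, 58.8, 70.4 and 61.8 CPM with uLPS+MRS2578, lower in each of the 4 animals as labelled. By edgeR's quasi-likelihood F-test the log2 fold change was -0.19 (SE 0.09, adjusted p = 0.878), and -0.09 (SE 0.10, adjusted p = 0.722) with the exchange. As labelled, 5 of 67 members (7.46%) were lower in all 4 animals, NDUFA10, ATP5F1C, ATP5PB, NDUFA9 and UQCRC1, against 6.59% of all genes, and 0 were higher in all 4, against 6.43%. NDUFB7, an accessory subunit of complex I, was lowest on the log2 fold scale in this edgeR test, at -0.33 (SE 0.21, adjusted p = 0.878), and was at -0.04 (SE 0.22, adjusted p = 0.956) with the exchange. It was at 30.002, 26.4, 45.2 and 33.4 CPM with uLPS and at 28.3, 32.3, 30.1 and 17.3 CPM with uLPS+MRS2578.

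The same edgeR test gave -0.27 (SE 0.15, adjusted p = 0.878) for ATP5MG, a membrane subunit of the ATP synthase, and -0.00 (SE 0.17, adjusted p = 0.995) with the exchange. COX7A2 was at -0.29 (SE 0.18, adjusted p = 0.878) and, with the exchange, at 0.07 (SE 0.20, adjusted p = 0.903). NDUFB2, an accessory subunit of complex I, was at -0.28 (SE 0.19, adjusted p = 0.881) and 0.04 (SE 0.20, adjusted p = 0.942), and COX5A, a subunit of complex IV, at -0.18 (SE 0.13, adjusted p = 0.885) and 0.09 (SE 0.13, adjusted p = 0.778). COX7A2, NDUFB2 and COX5A thus turned sign with the exchange, and ATP5MG and NDUFB7 came close to 0. None of the 6 had an adjusted p under 0.05 with either assignment of R02046.

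With the R02046 libraries exchanged, the members with an unadjusted p under 0.05 were NDUFB10, NDUFA4, NDUFB1 and NDUFV3, all above 0. NDUFB10, NDUFB1 and NDUFV3 were singled out after their values were seen. NDUFB10, an accessory subunit of complex I, was at 22.1, 17.2, 51.5 and 22.3 CPM in the libraries labelled uLPS and at 27.3, 27.6, 27.6 and 24.0 CPM in those labelled uLPS+MRS2578. By edgeR's quasi-likelihood F-test, NDUFB10 had 0.49 (SE 0.15, adjusted p = 0.163) on the log2 fold scale with the exchange and 0.05 (SE 0.25, adjusted p = 0.987) as deposited. That of NDUFA4 was 0.38 (SE 0.12, adjusted p = 0.192) with the exchange and 0.09 (SE 0.19, adjusted p = 0.957) as deposited. None passed the adjusted threshold.

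Within each animal most subunits moved the same way, and the direction differed between animals. The difference in log2 CPM (prior count 2) between uLPS+MRS2578 and uLPS had a median over the 67 members of 0.16 in R07110, 0.21 in R12016, -0.42 in R02046 as labelled and -0.21 in R14143. In R07110 50 of 67 members were higher with MRS2578 beside 50.2% of all genes, and in R12016 53 beside 49.8%. In R02046 as labelled 4 were higher beside 49.8%, and 63 would be with the exchange. In R14143 12 were higher, beside 46.7%. With the deposited labels 38 of 67 members (56.7%) were higher in R07110 and R12016 and lower in R02046 and R14143, a pattern found in 12.9% of all genes. The opposite pattern held for ATP5F1A and NDUFS1, a large core subunit of complex I that was at 126, 107, 123 and 119 CPM with uLPS and at 102, 99.6, 143 and 121 CPM with uLPS+MRS2578.

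The complexes differed in how far they moved. Complex IV had medians of 0.20, 0.21, -0.58 and -0.37, with all 11 tested subunits higher in R07110 and all 11 lower in R02046 as labelled. Complex I had 0.15, 0.25, -0.42 and -0.17, and complex V had 0.13, 0.18, -0.40 and -0.17. Complex III had 0.08, 0.05, -0.38 and -0.14, and complex II 0.10, 0.10, 0.03 and -0.15. Within complex I the 7 core subunits had medians of -0.00, 0.19, -0.25 and -0.09, and the 22 accessory subunits 0.18, 0.26, -0.47 and -0.22.

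Averaged over the 4 animals, no complex had a median difference beyond its SD over animals. With the deposited labels the mean was -0.05 ± 0.31 (SD, n = 4) for complex I, 0.02 ± 0.12 for complex II, -0.10 ± 0.21 for complex III, -0.14 ± 0.40 for complex IV and -0.07 ± 0.27 for complex V. With the exchange these were 0.16 ± 0.25, 0.01 ± 0.12, 0.09 ± 0.22, 0.15 ± 0.39 and 0.13 ± 0.23. The differences between complexes were not tested. Of 5 astrocyte markers 3 were tested. GFAP, at 0.32, 0.52, -0.67 and -0.85, and GJA1, at 0.34, 0.53, -0.65 and -1.75, differed in the same direction as the median of the members in each animal, and SLC1A3, at 0.03, -0.42, 0.34 and -0.04, did so only in R07110 and R14143, where it lay near 0. Summed over the list the astrocyte markers were at 74.6 to 163 CPM with uLPS and 74.2 to 175 CPM with uLPS+MRS2578, and their part in the result was not tested. These directions were not confined to astrocyte markers. TYROBP, a microglia and macrophage marker, differed by 0.28, 0.02, -0.43 and -0.51. The 11 tested markers of that list had medians of -0.17, -0.08, 0.15 and -0.38.

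**Figure D2:**
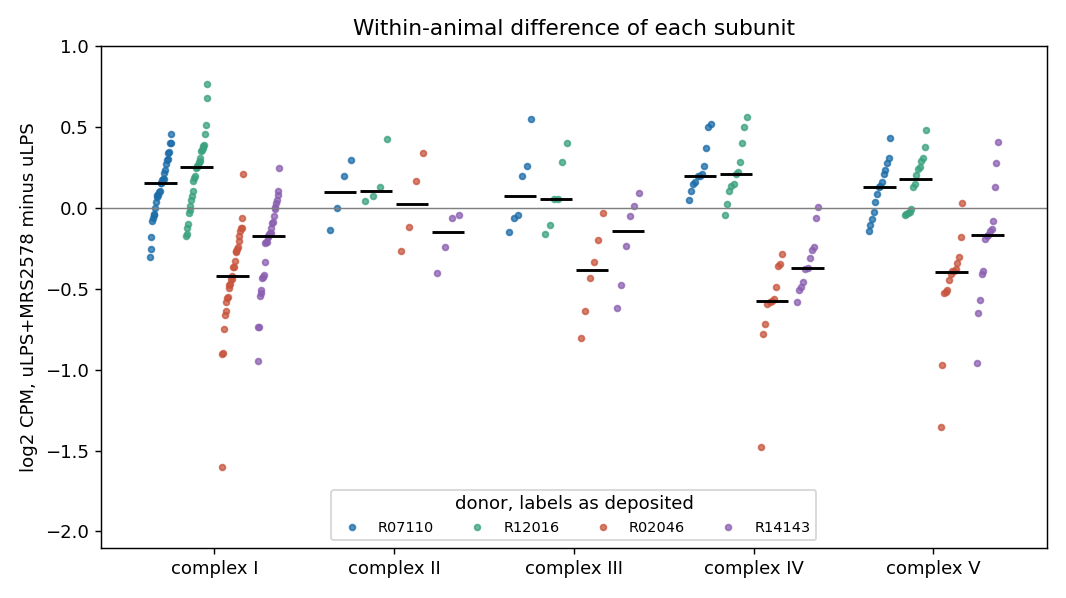
Difference in log2 CPM between uLPS+MRS2578 and uLPS within each animal for every tested subunit, by complex, with the labels as deposited. Each point is a subunit and bars mark medians: in complexes I, III, IV and V the medians lie above 0 in R07110 and R12016 and below 0 in R02046 and R14143, and those of complex II lie between -0.15 and 0.10.

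A fit of the effect in R07110 and R12016 (males) minus that in R02046 and R14143 (females) was added after seeing the data. With the deposited labels 60 of 67 members lay above 0 with a median of 0.59. It called 0 members beside 0.0989% of all genes, with a smallest adjusted p of 0.0738 for COX8A (edgeR's quasi-likelihood F-test), and 34 had an unadjusted p under 0.05 beside 19% of all genes. With the exchange it called 0 beside 0.0659%, 1 had an unadjusted p under 0.05 beside 7.68%, and the median was 0.10. Sex and animal cannot be told apart with 2 animals each.

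Short transcripts moved farthest. In the 28 members with an exonic length of up to 750 nt, the median difference was 0.22, 0.30, -0.58 and -0.46, and 27, 26, 0 and 2 of them were higher with MRS2578. In the 22 members of over 750 and up to 1500 nt it was 0.14, 0.15, -0.36 and -0.18. In the 16 members over 1500 nt, among them SDHA, UQCRC1, UQCRC2 and ATP5F1A, it was -0.01, 0.06, -0.14 and 0.00. The median length was 1626.5 nt for complex II, 1170.5 nt for complex III, 942 nt for complex I, 925 nt for complex V and 647 nt for complex IV. Complex III lay closer to 0 than complex II in R07110, R12016 and R14143, so the complexes did not order by length in each animal. The core subunits of complex I had a median length of 1178 nt and the accessory subunits of 724 nt.

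Genes outside the respiratory chain showed the same relation. For other genes of up to 500 nt the medians were 0.23, 0.20, -0.45 and -0.45, and for those over 5000 nt they were -0.05, -0.06, 0.20 and 0.10. With the median of other genes in the same length group subtracted, the median over 66 members became 0.00, 0.06, -0.10 and -0.02, and 33, 43, 16 and 31 members lay above the median of their group. Across the 66 members, Spearman's correlation between length and difference was -0.47, -0.46, 0.76 and 0.53, and across 10816 genes it was -0.15, -0.11, 0.40 and 0.26. These values are across genes of the same pair of libraries, and genes are not independent replicates. When a trend on exonic length was removed from each library before the fit, an alternative chosen after seeing the data, the median log2 fold change of the members was -0.03 with the deposited labels and 0.00 with the exchange. Why the trend differed between the libraries of an animal was not tested.

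**Figure D3:**
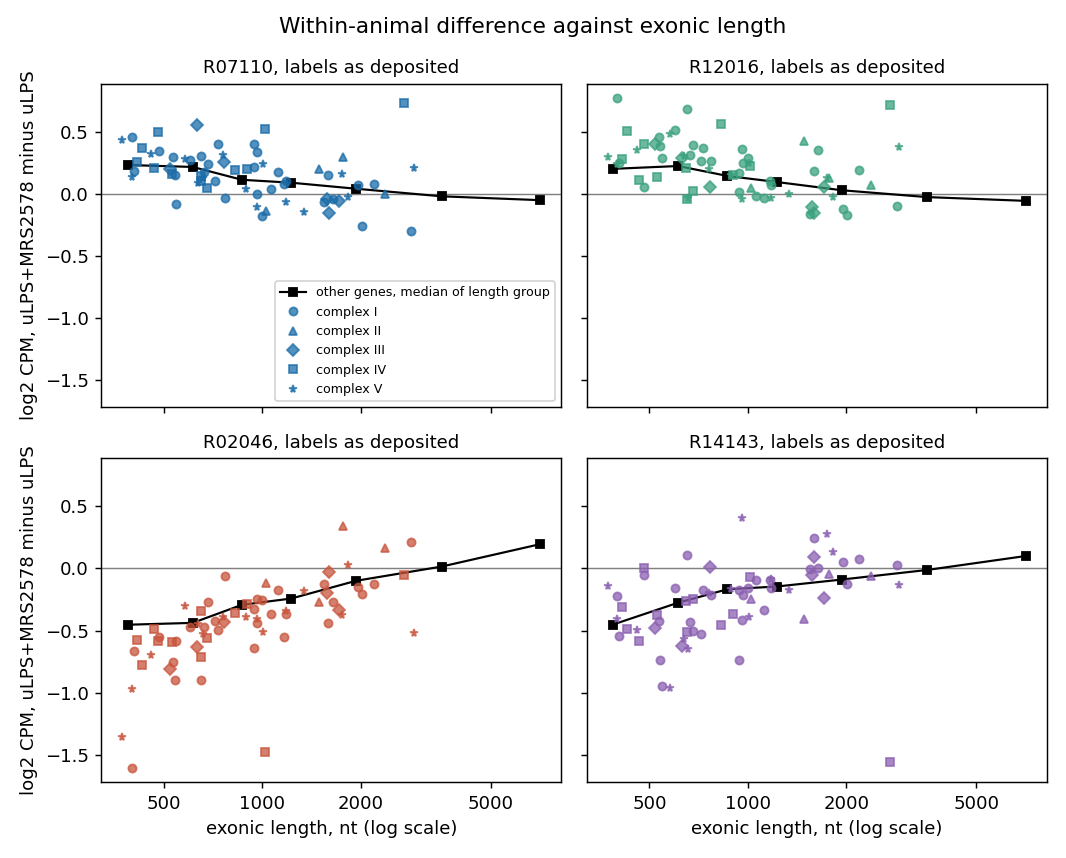
Difference in log2 CPM between uLPS+MRS2578 and uLPS against exonic length (nt, log scale) in each animal, labels as deposited. Coloured symbols are members by complex and black squares the medians of other tested genes by length group: members up to 750 nt have medians of 0.22, 0.30, -0.58 and -0.46, those over 1500 nt of -0.01, 0.06, -0.14 and 0.00.

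COX8A and ATP5F1A are a short and a long transcript that differed in this way, and not every member did. ATP5MC2, a gene for subunit c, has an exonic length of 2900 nt over all its annotated transcripts, the longest of which has 1897 nt. It differed by 0.21, 0.37, -0.52 and -0.13, against medians of 0.22, 0.30, -0.58 and -0.46 for members of up to 750 nt. These members were set side by side after their values were seen. COX8A, the small subunit 8 of complex IV, has an exonic length of 428 nt and was at 48.6, 53.6, 119 and 47.1 CPM with uLPS and at 62.8, 75.9, 69.1 and 33.4 CPM with uLPS+MRS2578, a difference of 0.37, 0.50, -0.78 and -0.49 on the log2 scale. ATP5F1A, with 1823 nt, differed by -0.02, -0.02, 0.03 and 0.13. The 250 bases upstream of their annotated starts (RefSeq, Mmul_10, read in the direction of the gene) are shown because both hold the core of an ETS-family site, CCGGAAGT, on the opposite strand, so that it reads ACTTCCGG, in capitals. They lie at chr14:10577642-10577891 on the minus strand for COX8A and at chr18:36357634-36357883 on the plus strand for ATP5F1A.
COX8A: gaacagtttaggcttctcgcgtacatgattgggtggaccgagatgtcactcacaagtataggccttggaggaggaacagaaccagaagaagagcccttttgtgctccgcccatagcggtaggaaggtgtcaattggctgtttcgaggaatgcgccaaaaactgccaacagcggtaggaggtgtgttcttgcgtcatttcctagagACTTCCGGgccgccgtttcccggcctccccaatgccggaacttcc
ATP5F1A: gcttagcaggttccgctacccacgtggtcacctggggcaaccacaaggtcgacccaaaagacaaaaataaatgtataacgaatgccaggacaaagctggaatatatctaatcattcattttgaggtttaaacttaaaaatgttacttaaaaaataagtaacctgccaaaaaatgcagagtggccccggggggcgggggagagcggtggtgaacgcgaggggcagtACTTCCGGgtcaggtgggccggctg

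ETS-family factors such as GABP, and NRF1, are known regulators of many respiratory chain genes. The letters CCGGAAGT, searched on both strands, were found in 5 of 69 member promoters (7.25%), those of ATP5F1A, COX8A, NDUFB5, SDHD and UQCRQ, against 2.91% of 16372 protein-coding promoters of the same length and 4.05% of the 10809 promoters of tested genes. The letters GCATGCG of an NRF1 core were found in 5 of 69 (7.25%), those of ATP5ME, ATP5MG, ATP5PF, NDUFS6 and SDHB, against 3.40% and 4.20%. The letters GGGCGG of an SP1 core were found in 31 of 69 (44.9%), against 48.4% and 55.9%. These genes are named by the motif search. COX8A and ATP5F1A share the ETS letters and differ in their values within animals, and a match describes only the letters in this window.

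The share of each library's counts that fell in the members followed the same animals. In R07110 it was 0.376% with uLPS (95% Wilson interval 0.374 to 0.378) and 0.407% with uLPS+MRS2578 (0.405 to 0.410), and in R12016 it was 0.331% (0.329 to 0.334) and 0.399% (0.396 to 0.402). In R02046 as labelled it was 0.533% (0.528 to 0.538) and 0.424% (0.420 to 0.427), and in R14143 0.367% (0.365 to 0.370) and 0.351% (0.348 to 0.354). The intervals cover counting error only. The mean of uLPS+MRS2578 minus uLPS was -0.00648 percentage points ± 0.0766 (SD, n = 4; exact permutation test within animals, two-sided, p = 0.875). With the exchange it was 0.0480 ± 0.0533 (exact permutation test, two-sided, p = 0.25). The smallest p this test can give with 4 animals is 0.125.

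**Figure D4:**
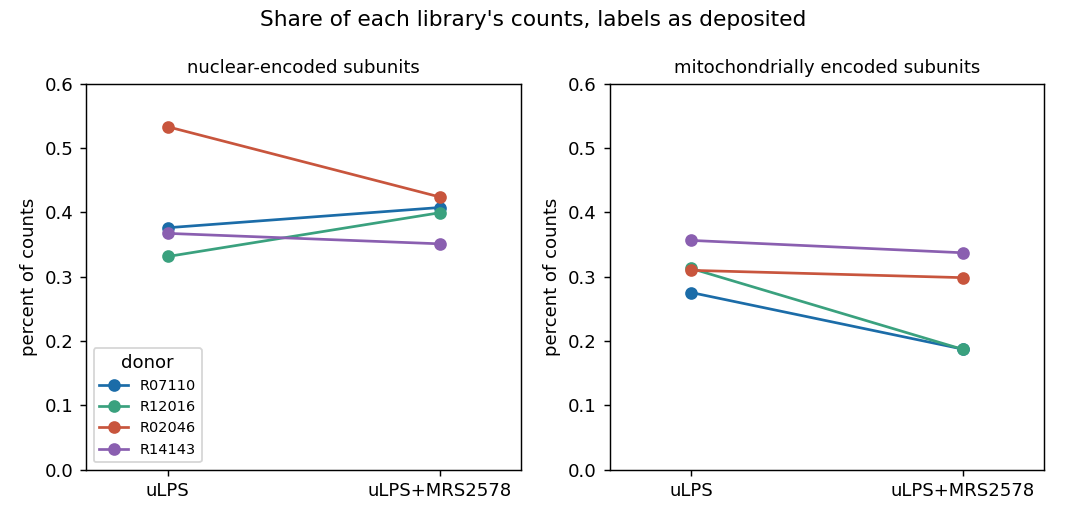
Percent of each library's counts in the nuclear-encoded members (left) and in the mitochondrially encoded subunits (right), with a line per animal from uLPS to uLPS+MRS2578, labels as deposited. The nuclear share goes from 0.376% to 0.407% in R07110 and from 0.331% to 0.399% in R12016 and is lower with MRS2578 in the other animals, and the mitochondrially encoded share is lower in all 4.

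The 13 subunits encoded by mitochondrial DNA, partners of the members in the same complexes, had another pattern. Their share of counts was 0.275% with uLPS and 0.187% with uLPS+MRS2578 in R07110, 0.313% and 0.187% in R12016, 0.310% and 0.298% in R02046 as labelled, and 0.356% and 0.337% in R14143. Of 12 tested, 0 were called, 1 lay above 0 and the median log2 fold change was -0.44 with the deposited labels. By edgeR's quasi-likelihood F-test, 4 had an unadjusted p under 0.05, beside 5.14% of all genes. With the exchange 0 were called, 3 lay above 0 and the median was -0.37. There 7 had an unadjusted p under 0.05, beside 16.4% of all genes. Genes of the same libraries are not independent replicates. COX1, the catalytic subunit of complex IV, was at 951, 1027, 996 and 1301 CPM with uLPS and at 609, 604, 994 and 1226 CPM with uLPS+MRS2578. As labelled, COX1 was lower with MRS2578 in each animal, by -0.64, -0.77, -0.00 and -0.09 on the log2 scale. Of the 11 tested nuclear-encoded subunits of complex IV, 11, 10, 0 and 1 were higher in the same animals. By edgeR's quasi-likelihood F-test, COX3 differed on the log2 scale by -0.49 (SE 0.16, adjusted p = 0.878) as deposited and by -0.49 (SE 0.14, adjusted p = 0.156) with the exchange. ND4 stood apart in R12016, at 491 and 236 CPM, against 7.20 to 31.8 CPM in the other animals. So did ND5, at 252 and 136 CPM, against 32.2 to 75.6 CPM. ND1 and COX2 reached at most 10.3 and 46.3 CPM in any library, while COX1 was at 604 CPM or more. Whether reads went uncounted in such rows was not tested, and the shares hold only counted reads.

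The number of members called for donor depended on the assignment of R02046 and on the test. With the deposited labels the donor test in the same fit called 2 of 67 members, NDUFV2 and NDUFA4, beside 7.35% of all genes, and with the exchange 14 of 67, beside 18.9%. For donor, the likelihood ratio tests of DESeq2 and edgeR called 20 and 19 members with the deposited labels, where they called 2468 and 2773 of 12131 genes. NDUFV2 was at 10.4, 6.00, 21.7 and 17.6 CPM with uLPS and at 9.18, 7.34, 18.1 and 15.8 CPM with uLPS+MRS2578, and both R02046 and R14143 lay above both other animals in either group (donor test adjusted p = 0.0203, and 0.00697 with the exchange, edgeR's quasi-likelihood test). NDUFA4 was highest in R12016 and lowest in R14143 in both groups (adjusted p = 0.0456, and 0.00375 with the exchange, same edgeR test). ATP5PD, a stalk subunit of the ATP synthase, had the next smallest p (adjusted p = 0.0520, and 0.0192 with the exchange, same edgeR test). It was at 50.0, 51.7, 86.2 and 40.6 CPM with uLPS and at 51.3, 57.4, 65.8 and 36.1 CPM with uLPS+MRS2578.

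**Figure D5:**
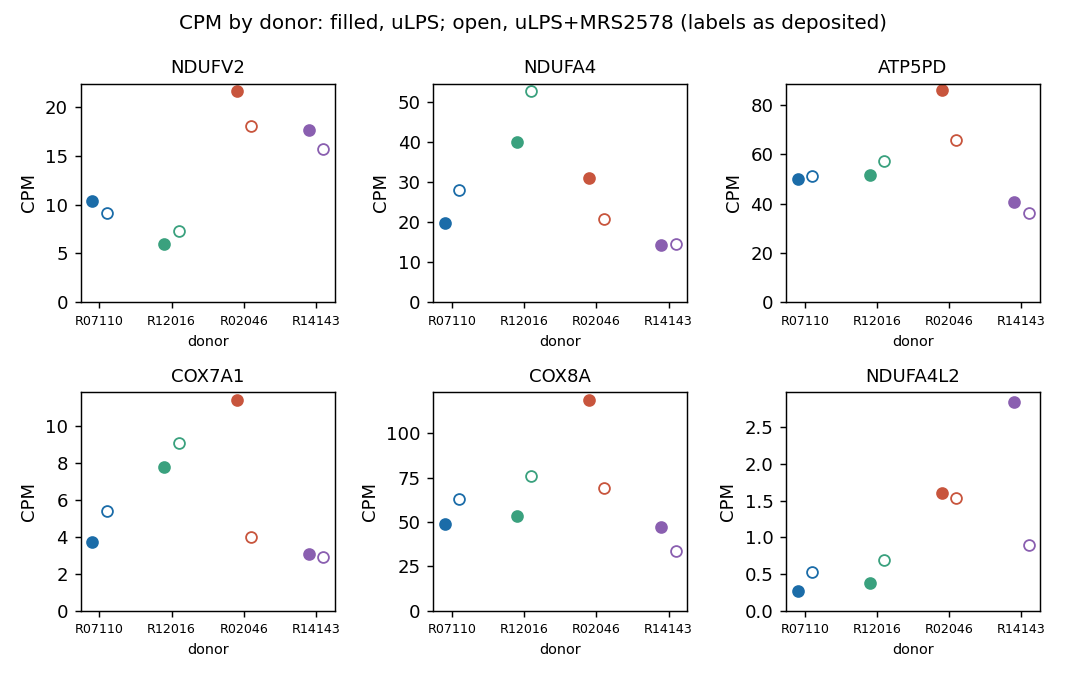
CPM of 6 members by donor, with filled points for uLPS and open points for uLPS+MRS2578, labels as deposited. NDUFV2 lies at 15.8 to 21.7 CPM in R02046 and R14143 and at 6.00 to 10.4 CPM in R07110 and R12016, and COX8A and COX7A1 have their highest value in the R02046 library labelled uLPS.

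Assembly factors and regulators of the chain, in lists set beside the members, gave no call either. Of 18 tested complex I assembly factors 8 lay above 0 as deposited and 13 with the exchange, with medians of -0.02 and 0.06. Of 17 complex IV assembly factors 3 and 13 lay above 0, with medians of -0.13 and 0.07. The medians were 0.05 and 0.13 for 4 factors of complex II, 0.02 and 0.08 for 5 of complex III and 0.08 and 0.20 for 3 of complex V. Of 11 tested transcription and biogenesis factors, among them NRF1, GABPA, TFAM and ESRRA, 7 lay above 0 under either assignment, with medians of 0.02 and 0.05. PPARGC1A, a coactivator known to drive mitochondrial biogenesis, had 0 counts in 7 of 8 libraries and 0.0638 CPM in the other.

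A subunit and a carrier that are not among the members were read beside them. NDUFA11, a complex I subunit without a symbol in the count files, was at 24.9, 24.7, 47.8 and 30.1 CPM with uLPS and at 33.6, 33.4, 39.3 and 24.1 CPM with uLPS+MRS2578. CYCS, the somatic cytochrome c that links complexes III and IV, was at 135, 125, 202 and 136 CPM with uLPS and at 129, 114, 177 and 137 CPM with uLPS+MRS2578. By edgeR's quasi-likelihood F-test, CYCS differed by -0.10 (SE 0.09, adjusted p = 0.906) on the log2 scale.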

How the data were processed

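By the study's methods, libraries were prepared with a directional kit after mRNA was selected from total RNA on oligo(dT) beads. The deposited files hold raw counts per gene, 1 file per library, which the authors made by read trimming, alignment to Mmul_10 and counting. The submitters' processing notes name Trimmomatic 0.30, TopHat2 2.0.14, SAMtools 1.3 and HTSeq 0.6.1p1, whereas the study's methods name fastp and STAR with SAMtools and HTSeq, and this was not resolved. Whether the uLPS group received the vehicle of MRS2578 is not stated in the labels. Library totals were 9231109 to 32790348 counts, and 3 counts corresponded to 0.0915 to 0.325 CPM.

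Genes were filtered with edgeR 4.0.16 (filterByExpr), scaled with TMM and tested with its quasi-likelihood F-test on group and donor (R 4.3.3), with Benjamini-Hochberg adjustment over 12131 genes and a threshold of 0.05. DESeq2 1.42.0 was an alternative. CPM were taken on library sizes scaled by TMM, and log2 CPM used a prior count of 2. TPM used exonic lengths from the Mmul_10 annotation, joined over all transcripts of a gene. Shares of counts were compared with SciPy 1.17.1. Scripts were tested on simulated data. The donor number marks the same animal, and deviations from the group means correlated at 0.602, 0.552, 0.458 and 0.562 within animals.

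Members and lists were chosen with earlier results of these data known. Named were, per complex, the 2 subunits with the highest and the 1 with the lowest TPM, the 6 members with the smallest p for MRS2578 and the 3 for donor, tissue isoforms and their partners, complex II, CYC1, ATP5IF1, and any member called in a setting that keeps all 4 donors (there were 0). Others are said to be chosen after seeing values. Alternatives changed the scaling, the count filter, the test, the block, the prior count, the libraries left out and the assignment of R02046. Removal of the length trend, the earlier quasi-likelihood estimation, other tests with the exchange and the fit by sex were added after seeing the data.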

Additional observations from a re-analysis of the deposited data

Results flagged for a closer look

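In 29 named members with 2 groups each, 58 groups of 4 libraries were examined, and in 7 a library stood apart from the other 3 by Dixon's criterion. Chance gives about 1 in 20 in independent groups. These groups come from the same libraries, and the members were partly named by their values, so the count cannot be set against chance. In the uLPS group the R02046 library was the high one for NDUFB8 at 82.7 CPM (the others 52.4 to 55.1), COX8A at 119 CPM (47.1 to 53.6), COX7A2 at 20.4 CPM (10.4 to 12.1) and COX6B1 at 42.5 CPM (22.3 to 25.7). In the uLPS+MRS2578 group R02046 was high for SDHB at 88.4 CPM (63.6 to 67.7), and R14143 was low for ATP5MG at 21.6 CPM (42.4 to 46.0) and for COX6B1 at 17.2 CPM (28.1 to 28.3).

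With the deposited labels the 2 males and the 2 females moved in opposite directions. The share of counts in members was higher with MRS2578 by 0.0497 percentage points on average in the males and differed by -0.0626 in the females, a gap of 0.112. The median difference in log2 CPM was 0.18 and -0.32 over all members (gap 0.50), 0.20 and -0.30 for complex I (0.50), 0.06 and -0.26 for complex III (0.33), 0.20 and -0.47 for complex IV (0.68) and 0.15 and -0.28 for complex V (0.44). These gaps were not tested themselves. The fit of the male minus female effect per gene called 0 of 67 members under either assignment of R02046. With the exchange R02046 moves with the males. Sex is given by the donor table of the study, and sex and animal cannot be told apart with 2 animals each.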

How the results depend on the processing

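The members called for MRS2578 stayed at 0 in the fit as designed and in all 19 other settings. The number of genes called, 0 with the deposited labels, was 1 with DESeq2's Wald test and 5 with edgeR's likelihood ratio test. With the R02046 libraries exchanged it was 75, and with the exchange it was 110 after removal of the length trend, 39 with the earlier quasi-likelihood estimation, 616 with the likelihood ratio test and 583 with the Wald test. Members called for donor, 2 beside 892 of 12131 genes as designed, were 20 with DESeq2's likelihood ratio test (2468 genes) and 19 with edgeR's (2773). They were 1 with at least 10 counts in every library (620 of 10956) and 14 with the exchange (2288). With the exchange they were 11 after removal of the length trend (2585 genes), 11 with the earlier estimation (2141), 29 with edgeR's likelihood ratio test (3862) and 30 with DESeq2's (3395). Leaving out 1 donor gave 0 to 5, with 0 without R12016 (333 of 12207 genes), 5 without R02046 (909 of 12295) and 1 without R14143 (408 of 12128). Without the replicate block the median of the members was -0.10, 9 lay above 0 and 0 were called. The median of the members, -0.09, was -0.16 without R07110, -0.16 without R12016, 0.02 without R02046 and -0.04 without R14143, and 0.11 with the exchange. Summed over the tested subunits among the members in place of the median, complexes I to V stood at 2928, 405, 1294, 2202 and 2135 TPM. The order of complexes thus depends on this choice. The cause of these changes was not tested.

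Each group has 4 animals, R02046 has the smallest library with 9231109 counts and its libraries carry conflicting labels. No untreated cells were analysed here, so nothing is said of the response to uLPS itself. The length trend and the cell type markers were described beside the members and not separated from MRS2578.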
